A study of Mus musculus with 6 samples.

Results

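A set of 10 genes of amino acid transport was followed in microglia that differ in the number of intact *Bhlhe41* alleles. The genes were listed by name, and every probe on the array whose transcript accession maps to one of them was taken, which gave 13 probes for 10 genes of the 23462 genes that could be named. *Slc7a11*, *Slc3a2* and *Slc7a8* had 2 probes each and the other 7 genes had 1. Microglia, the resident macrophages of the brain, were sorted as CD45low CD11b+ Cx3cr1+ cells from 3-month-old mice and hybridised to 1-colour Agilent SurePrint arrays. The control samples (B41HET, n = 3) carried *Bhlhe41* dTomato-Cre on 1 allele, and the knockout samples (B41KO, n = 3) carried it on both, so that the reporter and the recombinase were present in every sample and no wild-type sample was compared. The allele is not limited to microglia, and per the Methods each sample was pooled from several animals, although the labels count 3 mice per genotype. Bhlhe41 is a basic helix-loop-helix repressor that binds the E-box CACGTG, and the question put to these genes was whether their RNA differed between the genotypes.

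Most amino acids enter a cell through carriers of a few families. Several light chains of the SLC7 family have to join the heavy chain CD98, encoded by *Slc3a2*, to reach the plasma membrane. The light chain then decides which amino acids are exchanged. Carriers of the SLC1 family take up glutamate or small neutral amino acids with sodium, and *Slc38a2* encodes a sodium-coupled carrier of small neutral amino acids. In microglia such carriers supply leucine, glutamine and arginine, and the cystine and glutamate exchanger made of Slc7a11 and CD98 imports cystine for glutathione while it releases glutamate.

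On these arrays none of the 10 transporter genes was called as different between B41HET and B41KO microglia. A gene was called when limma, a linear model with a shared variance estimate, gave an adjusted p of at most 0.05 and the log2 fold change was at least 0.5 in size. By these criteria 0 of 10 member genes and 0 of 13 member probes were called, whereas 1.44% of all genes were called higher and 4.01% lower. At an unadjusted p under 0.05 there were 3 genes, *Slc7a7*, *Slc7a8* and *Slc38a2*, and 4 probes, the last being the dimmer probe of *Slc3a2*. Of the 11 probes with signal well above background in all 6 samples, 10 had a 95% interval of the log2 fold change that lay within 0.5 of 0, so the arrays bounded most of these genes to small differences. On the brightest probe the log2 fold change of the measured genes ran from -0.28 for *Slc7a7* to 0.27 for *Slc7a8*.

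The DNA before the start sites of the 4 genes with a probe at an unadjusted p under 0.05 is shown first, with that of *Slc7a11*, since it is where the E-box of Bhlhe41 or the elements of stress-response factors could lie. Windows of 250 bases before each RefSeq start, on the GRCm38.p6 build, could be read for 8 of the 10 genes (13 windows), and *Slc7a5* and *Slc1a5* had no entry. In the lines that follow, all read on the minus strand and written 5′ to 3′, capitals mark matches on either strand to TGATGNAA, the core of the element bound by ATF4 with C/EBP proteins, or to TGACNNNGC, the core of the antioxidant element bound by Nrf2. The windows are chr19:8713898-8714147 for *Slc3a2*, chr14:54417945-54418194 for *Slc7a7* (the most upstream of its 5), chr14:54781887-54782136 for *Slc7a8*, chr15:96699729-96699978 for *Slc38a2* and chr3:50443614-50443863 for *Slc7a11*.
Slc3a2: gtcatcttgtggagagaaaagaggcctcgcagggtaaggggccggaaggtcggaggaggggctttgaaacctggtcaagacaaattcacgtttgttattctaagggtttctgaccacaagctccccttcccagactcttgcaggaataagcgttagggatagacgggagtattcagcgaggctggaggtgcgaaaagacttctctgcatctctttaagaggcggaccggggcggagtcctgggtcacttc
Slc7a7: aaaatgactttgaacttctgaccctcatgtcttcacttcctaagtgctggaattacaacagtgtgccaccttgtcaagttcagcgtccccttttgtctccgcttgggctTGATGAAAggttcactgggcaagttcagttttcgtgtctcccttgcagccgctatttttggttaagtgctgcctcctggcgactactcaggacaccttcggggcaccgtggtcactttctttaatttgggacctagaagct
Slc7a8: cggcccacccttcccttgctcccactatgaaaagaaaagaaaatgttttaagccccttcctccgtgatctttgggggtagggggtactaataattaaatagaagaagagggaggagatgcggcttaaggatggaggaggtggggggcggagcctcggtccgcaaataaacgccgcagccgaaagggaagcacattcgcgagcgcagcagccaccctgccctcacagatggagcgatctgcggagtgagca
Slc38a2: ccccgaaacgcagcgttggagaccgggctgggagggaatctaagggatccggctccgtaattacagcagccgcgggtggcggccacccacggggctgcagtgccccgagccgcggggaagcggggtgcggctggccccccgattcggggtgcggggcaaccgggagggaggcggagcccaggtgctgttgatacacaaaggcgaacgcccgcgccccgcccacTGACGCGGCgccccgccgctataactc
Slc7a11: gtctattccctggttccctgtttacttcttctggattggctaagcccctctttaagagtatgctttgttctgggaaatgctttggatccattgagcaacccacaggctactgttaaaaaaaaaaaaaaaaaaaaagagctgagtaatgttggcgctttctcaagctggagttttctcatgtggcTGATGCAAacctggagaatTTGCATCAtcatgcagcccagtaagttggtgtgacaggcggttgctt
The E-box CACGTG, which reads the same on both strands, was found in none of the 13 windows, and it was present in 6.02% of the 32851 windows of all genes. Given that share, its absence from 13 windows says little about these genes. Sequence farther upstream, where some of the sites that the paper reports as bound by Bhlhe41 lie, was not searched. The *Slc7a11* window held 2 matches to TGATGNAA, 1 on each strand, beginning 66 and 47 bases before the start. The *Slc7a7* window shown held TGATGAAA at 141 bases, and its next window held TGATGCAA at 243 bases before a start further downstream. Matches to TGATGNAA were present in 3.45% of all windows. *Slc38a2* held 1 match to TGACNNNGC at 27 bases and *Slc7a1* held 1 on the opposite strand at 11 bases, against 10.2% of all windows, and *Slc3a2* and *Slc7a8* held none of the 3 motifs. No 2 matches shared bases. These are matches of letters and not measured sites.

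*Slc3a2*, the heavy chain shared by the light chains, was read by 2 probes that shifted in opposite directions. Values are log2 of the quantile-normalised processed signal, and levels of different probes cannot be set against each other. The brighter probe (A_55_P2893745) read 15.70, 15.55 and 15.60 in B41HET replicates 1 to 3 and 15.79, 15.77 and 15.80 in B41KO replicates 1 to 3. Every B41KO sample lay above every B41HET sample, by a gap of 0.06 between the nearest samples. The log2 fold change was 0.17 (SE 0.07, 95% interval -0.01 to 0.35, limma adjusted p = 0.239). The dimmer probe (A_51_P472901) read 12.894, 12.999 and 12.960 in B41HET and 12.695, 12.654 and 12.641 in B41KO. Here every B41KO sample lay below every B41HET sample. Its log2 fold change was -0.29 (SE 0.07, interval -0.46 to -0.12, limma adjusted p = 0.0682), which was the smallest adjusted p among the members. The 2 probes were designed on different RefSeq transcripts of the gene. Why they disagreed was not tested, and a single direction cannot be given for *Slc3a2*. Before normalization between arrays, the brighter probe read 54375.5, 50617.5 and 51110.3 in B41HET and 56838.8, 52189.6 and 53892.1 in B41KO. Its groups overlapped there, while those of the dimmer probe did not. Within each array the brighter probe exceeded the dimmer by 2.81, 2.55 and 2.64 in B41HET and by 3.10, 3.11 and 3.16 in B41KO, a change of 0.46 between the means that was looked at after the opposite shifts had been seen and is given without a test.

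**Figure D1:**
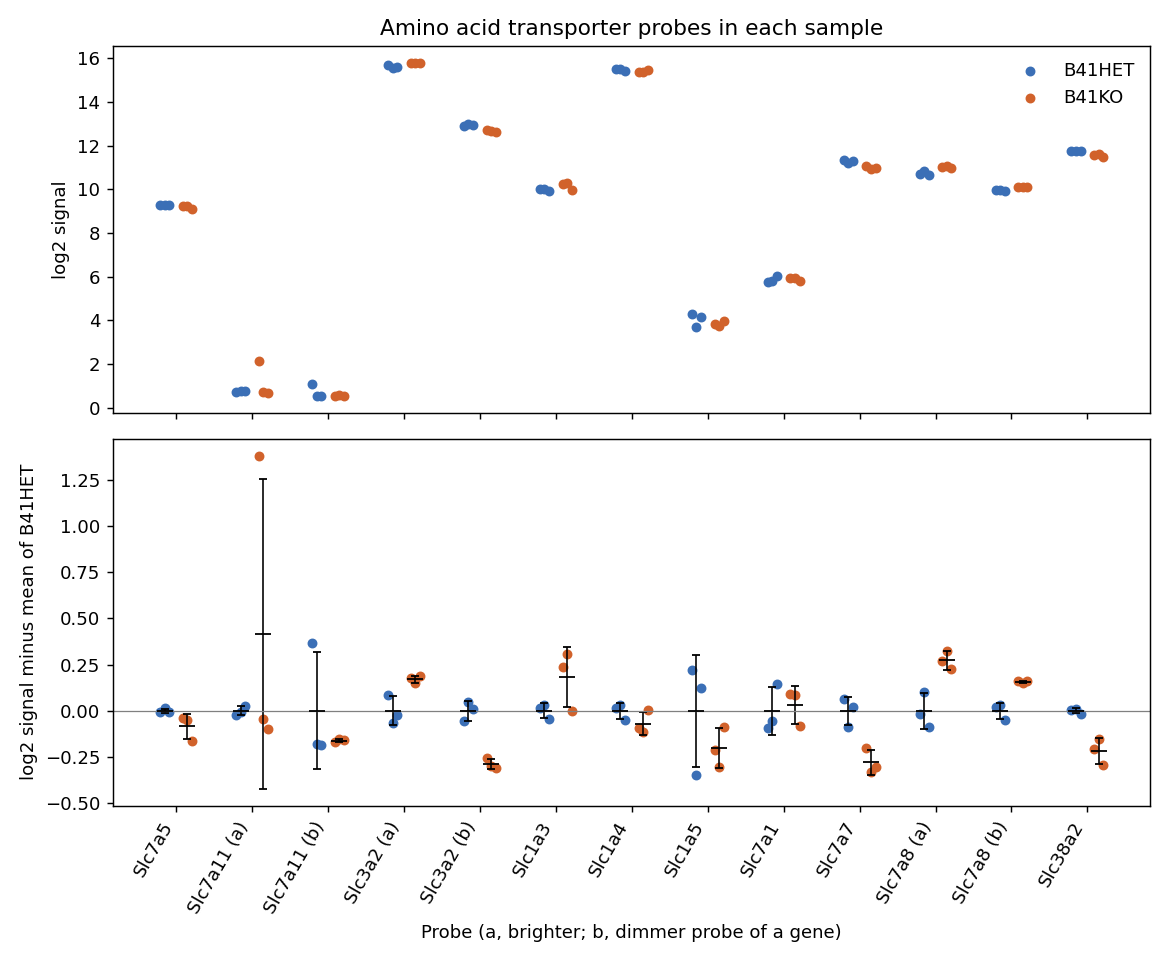
Log2 signal of each of the 13 transporter probes in 3 B41HET and 3 B41KO samples (upper panel), and the same values minus the B41HET mean of that probe (lower panel; long ticks are means and bars 1 SD). The probes span a wide range of signal while the genotypes differ little, and the point farthest from its group is a B41KO sample on a *Slc7a11* probe that was not well above background, with a B41HET sample standing apart on the other *Slc7a11* probe.

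Among the light chains, *Slc7a5* and *Slc7a8* encode exchangers of large neutral amino acids such as leucine. *Slc7a5* (LAT1) read 9.28, 9.30 and 9.27 in B41HET and 9.24, 9.23 and 9.12 in B41KO. The B41KO samples were all lower, but only 0.03 separated the nearest samples of the genotypes. The log2 fold change of -0.08 (SE 0.07, interval -0.26 to 0.09, limma adjusted p = 0.553) was about the size of its error. *Slc7a8* (LAT2) shifted upwards on both of its probes. The brighter (A_51_P112734) read 10.72, 10.84 and 10.65 in B41HET and 11.01, 11.06 and 10.96 in B41KO, and the dimmer (A_55_P2883452) read 9.98, 9.99 and 9.91 against 10.12, 10.11 and 10.12. Neither probe had any overlap between the genotypes. The log2 fold changes were 0.27 (SE 0.08, interval 0.07 to 0.47, adjusted p = 0.114 by limma) and 0.16 (SE 0.06, adjusted p = 0.226 by limma), or 1.21-fold and 1.11-fold, and neither passed the test.

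*Slc7a7* (y+LAT1), whose product exports cationic amino acids such as arginine in exchange for neutral ones, read 11.34, 11.20 and 11.30 in B41HET and 11.08, 10.95 and 10.98 in B41KO. All B41KO samples lay below all B41HET samples. The log2 fold change was -0.28 (SE 0.08, interval -0.47 to -0.08), and at an adjusted p of 0.105 by limma it did not pass. The log2 ratio of *Slc7a8* to *Slc7a7* signal on the same array read -0.62, -0.36 and -0.65 in B41HET and -0.07, 0.11 and -0.01 in B41KO. The ratio was thus 0.55 higher in B41KO on average, with 0.28 between the nearest samples, but this pair was chosen after its opposite shifts had been seen and no test is given.

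**Figure D2:**
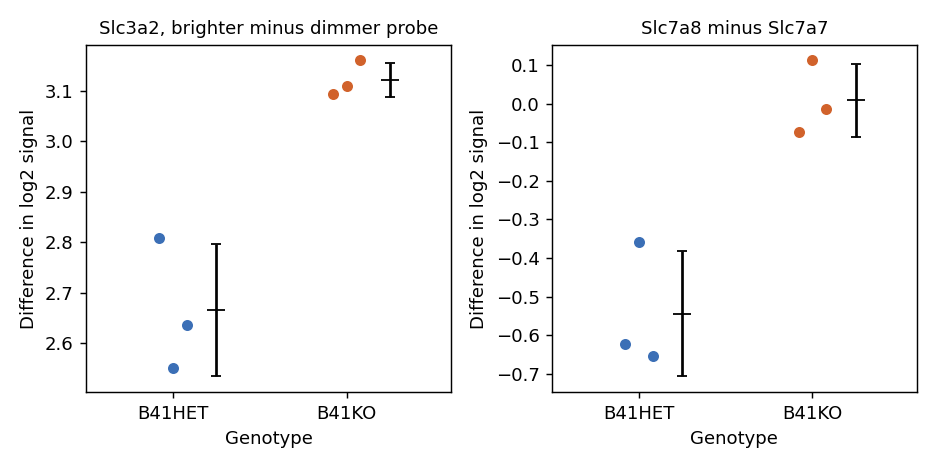
Within-array differences in log2 signal for the 2 *Slc3a2* probes (left) and for *Slc7a8* minus *Slc7a7* (right) in the 3 samples of each genotype, with means and 1 SD; the axes do not start at 0. In both panels the B41KO points lie above the B41HET points, by 0.29 and 0.28 between the nearest samples, and both pairs were picked for their opposite shifts.

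*Slc7a11*, the light chain of the cystine and glutamate exchanger, could not be measured. Neither of its probes was well above background on any of the 6 arrays. The first (A_52_P368057) read 0.74, 0.75 and 0.79 in B41HET and 2.14, 0.72 and 0.67 in B41KO, and the second (A_51_P129502) read 1.09, 0.54 and 0.54 against 0.55, 0.57 and 0.56. A single sample stood apart on each probe, B41KO replicate 1 on the first and B41HET replicate 1 on the second, and a different one each time. Its log2 differences are no measure of a fold change and are printed only where a setting turns on them, and a difference in *Slc7a11* RNA below the reach of these probes was not detectable. *Slc7a1*, which encodes the cationic amino acid carrier CAT1 and needs no heavy chain, was measured at 5.78, 5.82 and 6.02 in B41HET and 5.96, 5.96 and 5.79 in B41KO. The groups overlapped, with a log2 fold change of 0.03 (SE 0.10, interval -0.22 to 0.28, adjusted p = 0.889 by limma).

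The SLC1 members did not differ beyond their spread either. *Slc1a3* (GLAST), a glutamate transporter best known from astrocytes, read 10.01, 10.02 and 9.95 in B41HET and 10.23, 10.30 and 9.99 in B41KO. B41KO replicates 1 and 2 were above every control while replicate 3 lay among them. The log2 fold change was 0.18 (SE 0.10, interval -0.07 to 0.43, adjusted p = 0.362 by limma). *Slc1a4* (ASCT1), a carrier of alanine, serine and cysteine, read 15.50, 15.51 and 15.43 against 15.39, 15.37 and 15.48, and its log2 fold change was -0.07 (SE 0.07, interval -0.24 to 0.11, adjusted p = 0.636 by limma). *Slc1a5* (ASCT2), a glutamine carrier, was the dimmest of the measured member probes and read 4.28, 3.71 and 4.18 against 3.84, 3.75 and 3.97. Its groups overlapped, its log2 fold change was -0.20 (SE 0.17, adjusted p = 0.549 by limma), and its interval of -0.62 to 0.21 was the only one among the measured probes to pass 0.5 in size. A fall of that size in *Slc1a5* could therefore not be told from none at this precision.

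*Slc38a2* (SNAT2), which is known to be induced when amino acids are short, read 11.77, 11.78 and 11.75 in B41HET and 11.56, 11.61 and 11.47 in B41KO. The B41KO samples were all below the tightly spaced B41HET samples. The log2 fold change was -0.22 (SE 0.07, interval -0.39 to -0.04), with an adjusted p of 0.141 by limma, so the gene was not called.

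**Figure D3:**
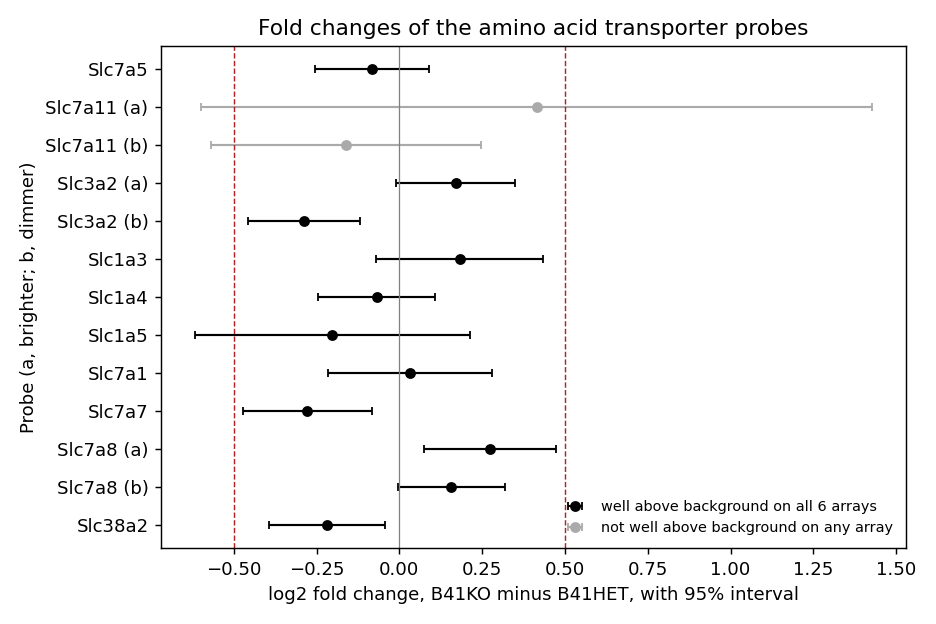
Log2 fold change (B41KO minus B41HET) of each transporter probe with its 95% interval from limma; dashed lines mark 0.5 in either direction, and grey marks the *Slc7a11* probes that were not well above background. No black point passes a dashed line, and among black intervals only that of *Slc1a5* crosses one.

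Over the list, 5 of 10 genes had no overlap between the genotypes on their brightest probe (*Slc3a2*, *Slc7a5*, *Slc7a7*, *Slc7a8* and *Slc38a2*), where 32.2% of all genes had none. With 3 samples against 3, a two-sided exact permutation test of a single probe cannot go below p = 0.1. Among the 9 measured genes the fold change was above 0 for 4 and below 0 for 5. The median log2 fold change was -0.02 over the 10 members, -0.07 over the 9 measured ones and 0.007 over all genes, and the median absolute log2 fold change was 0.19, 0.18 and 0.19 in turn. The sorted samples are bulk RNA, so fewer cells of a type and less RNA per cell cannot be told apart.

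The layout of the arrays touches these values. All arrays were on 1 slide, with the B41HET samples and B41KO replicate 1 in its first row and B41KO replicates 2 and 3 in its second. Within the first row, B41KO replicate 1 differed from the B41HET mean by -0.20 for *Slc7a7*, 0.27 for the brighter *Slc7a8* probe, -0.20 for *Slc38a2*, and 0.18 and -0.26 for the brighter and dimmer *Slc3a2* probes. Since the second row held no B41HET sample, a fit with the row as a block compares B41KO replicate 1 alone with the B41HET samples, the spread of a lone sample being assumed, and whether these values pass its test says nothing about their stability. The same setting called 1 member, *Slc7a11* (1.38, adjusted p = 0.0244 by limma), on the probe at background where B41KO replicate 1 alone was high. It was not called without that sample, where the difference was -0.07.

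Marker genes were read for the purity of the sort. All 10 microglia markers were well above background, with a summed level of 17.26 to 17.39 (log2) in B41HET and 17.22 to 17.30 in B41KO, and 1 of them, *Fcrls*, was called lower. Neutrophil markers were called lower for 7 of 10, with a summed level of 14.87 to 15.04 in B41HET and 12.57 to 12.65 in B41KO. Border macrophage markers were called lower for 6 of 10 (11.28 to 11.39 against 10.69 to 10.84), and endothelial markers for 2 of 10 (10.42 to 10.54 against 9.39 to 9.43). The endothelial calls were *Pecam1* (-1.68) and *Ly6c1* (-1.79), and the median log2 fold change of that list was 0.02, with 5 genes above 0 and 5 below. Oligodendrocyte markers were called lower for 1 of 10 (10.98 to 11.01 against 10.97 to 11.18), and none was called among astrocyte (11.27 to 11.38 against 11.33 to 11.52) or neuron markers (14.31 to 14.45 against 14.36 to 14.41). All 10 neutrophil markers and 7 of 10 border macrophage markers had signal well above background in all 6 samples. The sort for CD45low Cx3cr1+ cells is meant to leave out both kinds of cell, which carry more CD45. Such signal was also read for 10 of 10 astrocyte, 9 of 10 oligodendrocyte, 6 of 10 endothelial and 4 of 10 neuron markers. The part of any of these cells in the shifts of *Slc7a7*, *Slc3a2* and *Slc38a2*, or in the level of *Slc1a3*, was not tested. The targeted gene, *Bhlhe41*, read 7.95, 7.87 and 7.65 in B41HET and 8.56, 7.84 and 8.21 in B41KO on its brighter probe (log2 fold change 0.38, adjusted p = 0.330 by limma). The position of that probe relative to the inserted reporter is not given in the sources used here, so it does not check the genotype labels.

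The other genes of amino acid handling, listed by function, held 11 called genes among 119 (5 higher and 6 lower), beside the 1.44% called higher and 4.01% called lower over all genes. The count fell to between 3 and 5 when any 1 of the 6 samples was left out and to 3 with the slide row as a block. The loss was mostly of higher calls, of which 0 were left without B41HET replicate 2 or 3 or B41KO replicate 2 or 3 and 1 without either replicate 1, so that no rise of a brightest probe named here was called in 4 of these 6 fits, while 3 or 4 lower calls were made in each. The falls named here stand beside those of the neutrophil (median log2 fold change -2.01) and border macrophage markers (median -1.18), whose part in them was not tested. Of 31 other plasma membrane carriers, 1 was called, *Slc6a20a*, a sodium-coupled carrier of proline and related imino acids. It read 8.74, 8.85 and 8.89 in B41HET and 9.32, 9.51 and 9.69 in B41KO, a rise of 0.68 (SE 0.12, adjusted p = 0.0305 by limma). In all 6 samples 17 of these 31 genes had signal well above background, and 9 had it in none. *Slc6a6*, the taurine carrier, had probes that disagreed, with 0.51 (adjusted p = 0.216) on the brighter and -1.12 (adjusted p = 0.00361) on the dimmer by limma.

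Of 10 genes listed as lysosomal carriers, 1 was called, the glutamine and asparagine carrier *Slc38a7*. It read 11.67, 11.85 and 11.73 in B41HET and 11.10, 10.94 and 10.86 in B41KO, with a log2 fold change of -0.78 (SE 0.10, adjusted p = 0.0139 by limma). *Slc36a1* had a log2 fold change of -0.09 on its brighter probe and of -0.69 (adjusted p = 0.0115 by limma) on its dimmer probe. Of 30 genes that report amino acid supply to mTORC1, 1 was called, *Lamtor2*, a subunit of the lysosomal Ragulator scaffold (0.59, SE 0.10, adjusted p = 0.0312 by limma).

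The transporters *Slc7a11*, *Slc7a5* and *Slc38a2* are known targets of ATF4, the transcription factor that is made when amino acids run short. In the ATF4 response list 3 of 14 genes were called lower and 2 higher, with a median log2 fold change of 0.06. *Atf4* read 11.78, 11.90 and 11.76 in B41HET and 10.80, 10.81 and 10.68 in B41KO on its brighter probe, where it fell by 1.05 on the log2 scale (SE 0.08, adjusted p = 0.0044 by limma). The other *Atf4* probe gave -0.12 (adjusted p = 0.435 by limma), so the gene's direction rests on 1 probe. *Atf3* fell by 1.27 and *Ddit3*, both stress-induced transcription factors, by 0.77 (adjusted p = 0.00431 and 0.0319 by limma). *Phgdh*, the first enzyme of serine synthesis, rose by 0.71 and *Ddit4*, an inhibitor of mTORC1 signalling, by 0.58 (adjusted p = 0.0396 and 0.0403 by limma). The dimmer probes of *Asns*, asparagine synthetase, and *Psat1*, an enzyme of serine synthesis, were called and rose by 1.61 and 1.42 (adjusted p = 0.00772 and 0.0178 by limma), while their brighter probes gave 0.53 and 0.41 (adjusted p = 0.103 and 0.0478 by limma) and were not called. *Slc7a5* and *Slc38a2* were not called beside them, with log2 fold changes of -0.08 and -0.22.

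Of 14 glutathione and glutamate enzymes, 1 was called, the glutamate dehydrogenase *Glud1*, at 0.68 (adjusted p = 0.0381 by limma) on its brighter probe and -0.17 (adjusted p = 0.316 by limma) on the other. In the list of 13 enzymes of arginine and branched-chain amino acids, *Odc1*, ornithine decarboxylase of polyamine synthesis, read 9.42, 9.43 and 9.43 in B41HET and 7.92, 7.89 and 7.70 in B41KO, and fell by 1.58 on the log2 scale (SE 0.08, adjusted p = 0.00173 by limma). Its other probe fell by 0.76. Among 10 regulators of transporter genes *Atf4* was the 1 called on its brightest probe, and a dimmer probe of *Tfeb*, a regulator of lysosomal genes, was called at -0.56 (adjusted p = 0.0174 by limma). The medians of these lists lay between -0.16 for the regulators and 0.06 for the ATF4 response list, with that of the members at -0.02. A median near 0 does not make the lists alike. Single genes of the ATF4 response list ran from -1.27 to 0.71, and the measured members ran from -0.28 to 0.27.

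**Figure D4:**
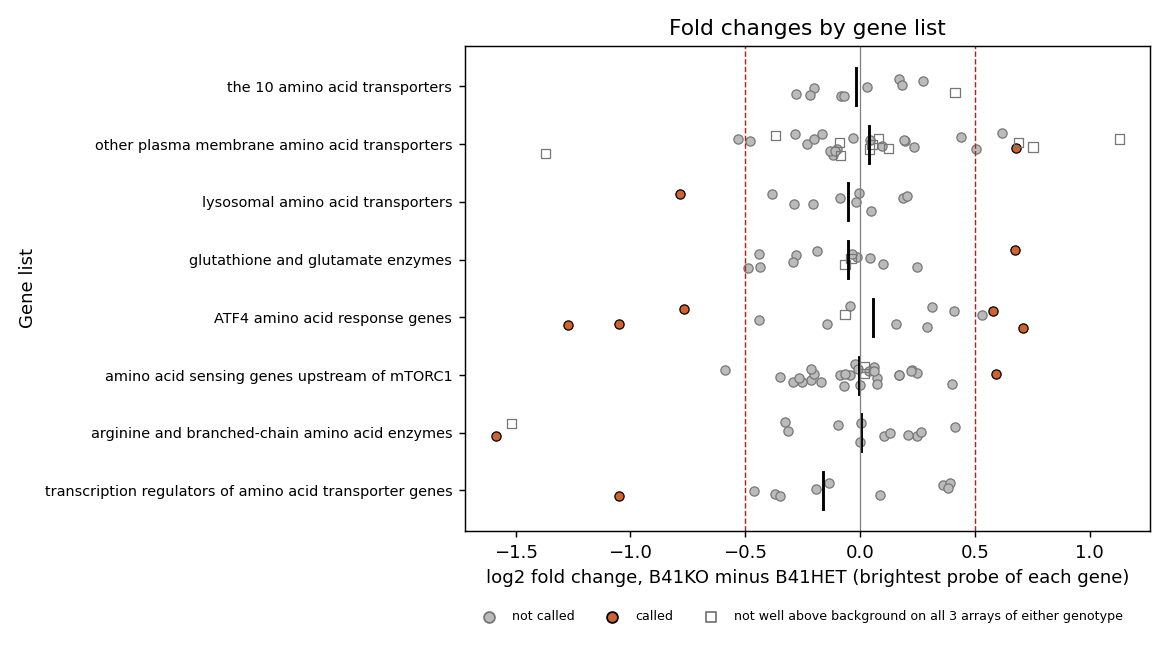
Log2 fold change (B41KO minus B41HET) of the brightest probe of each gene in the 10 transporters and in 7 lists of related genes; vertical ticks are list medians, dashed lines mark 0.5 in either direction, orange points were called and open squares, called or not, were not well above background on all 3 arrays of either genotype. The transporters hold no called gene, while the called genes of other lists lie between -1.58 for *Odc1* and 0.71 for *Phgdh*.

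Other settings kept the measured members below the fold threshold but moved 4 probes across the p threshold alone. With normexp background correction the adjusted p in limma was 0.00911 for the dimmer *Slc3a2* probe (log2 fold change -0.33), 0.0169 for *Slc7a7* (-0.29) and 0.0353 for *Slc38a2* (-0.20). With a trended and robust variance it was 0.0131 for the dimmer *Slc3a2* probe, 0.0395 for *Slc7a7*, 0.0466 for the brighter *Slc7a8* probe and 0.0476 for *Slc38a2*. Their signs were the same in all 14 alternatives of each probe. The side of the p threshold on which these genes lay changed with the setting.

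**Figure D5:**
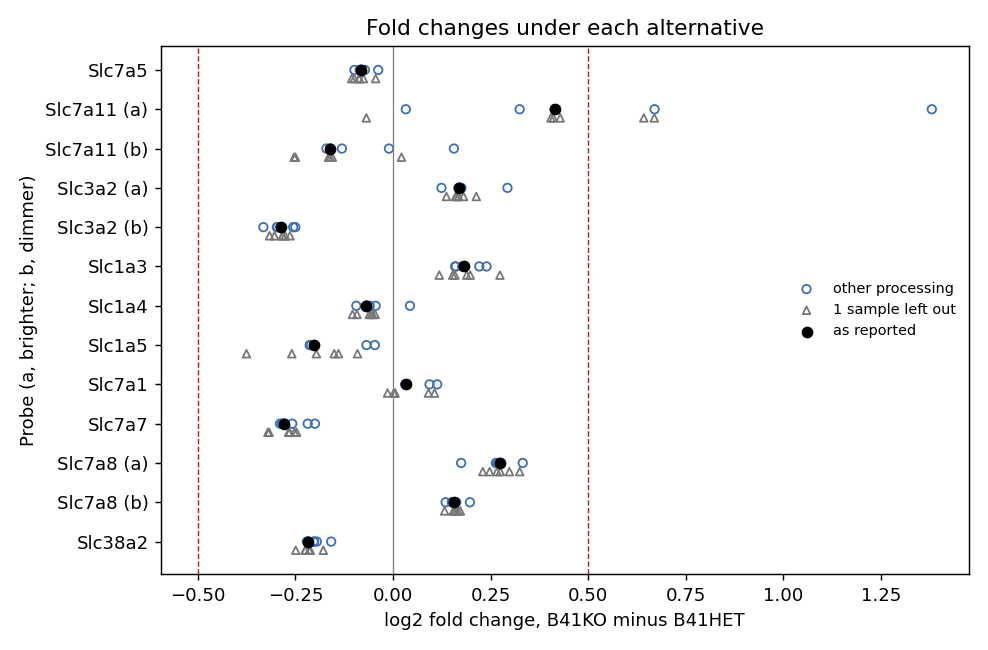
Log2 fold change (B41KO minus B41HET) of each transporter probe as reported (black), under other processing (blue circles) and with 1 sample left out (grey triangles); dashed lines mark 0.5 in either direction. All values of the measured probes lie within the dashed lines, and only *Slc7a11*, at background, reaches past 0.5.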

How the data were processed

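RNA from 6 samples of sorted microglia was hybridised to 1-colour Agilent SurePrint G3 Mouse v2 arrays. The authors deposited the scanner output of each array, made with Agilent Feature Extraction 11.5.1.1 per the file headers, and its processed intensity is background-subtracted and detrended within the array, with small positive estimates near background, and not normalized between arrays. The authors also deposited a table of log2 values, with scale and centring unstated, whose columns ranked the probes as their own arrays did; it served as an alternative.

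Control spots (leaving 59305 of 62976) and outlier-flagged spots (95 to 136 per array) were left out. The log2 intensity was quantile normalized and averaged over the spots of 56605 probes, as the Methods name quantile normalization and limma. limma 3.58.1 in R 4.3.3 (with data.table, version 1.17.8) was fitted to genotype on 56601 probes with a value in at least 2 samples per genotype, with Benjamini-Hochberg adjustment over all of them. Calls were made where the adjusted p was at most 0.05 and the log2 fold change at least 0.5 in size. Figures used matplotlib 3.10.9 in Python 3.11.15.

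Probes were named by matching transcript accessions, without versions, to RefSeq genes of GRCm38.p6, which named 33767 (59.7%), and promoter windows are RefSeq's on that build. The probe design names another build, so no probe coordinates are given. A gene was represented by its brightest probe, and all probes of the members are given. The genes named were the members and, of each other list, up to 6 genes called on the brightest probe, and probes that disagree were added after their values were seen. A further called gene of the other lists counts in their totals but is not reported here. The members and lists were chosen with earlier results of these data known.

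Well above background were 70.1 to 75.5% of probes per array, no spot was saturated, no arrays were identical, and arrays correlated at 0.989 to 0.993 within and 0.985 to 0.989 between genotypes. The number of arrays limits the precision, and p-values measure the spread between these samples only. Alternatives were a 75th percentile shift, the deposited table, normexp with an offset of 50, a filter on dim probes (well above background on 3 arrays), outlier spots kept, trended variance, leaving out each sample, the replicate number or the slide row as a block, other fold thresholds and other choices of probe. The fit was tested on simulated data.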

Additional observations from a re-analysis of the deposited data

How the results depend on the processing

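No member gene or probe was called under any alternative except blocking by slide row (a fit of B41KO replicate 1 alone against B41HET), which called 1 gene and 1 probe, the Slc7a11 probe at background (1.38). The median log2 fold change of the members was 0.078 with the 75th percentile shift, which moved the median of all genes from 0.007 to 0.095, so the members stood -0.02 from it as before. Directions turned for probes near 0 or at background: for the second Slc7a11 probe (0.16 with the 75th percentile shift, 0.022 without B41HET replicate 1, the range over single samples left out being -0.25 to 0.022), for the first (-0.068 without B41KO replicate 1, range -0.068 to 0.67), for Slc1a4 (0.043 with the 75th percentile shift) and for Slc7a1 (-0.014 without B41HET replicate 1, range -0.014 to 0.11). The within-array change of the Slc3a2 probes was 0.59 with the 75th percentile shift. The 11 other genes of the pathway became 17 without a fold threshold, 4 at a log2 fold change of at least 1 in size, 3 with the slide row as a block, 0 with the replicate block and 3 to 5 with any 1 sample left out, B41HET or B41KO, so their count rests on all 6 samples; the cause was not tested.

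Over all probes 2867 were called (975 higher, 1892 lower), against 2831 (1297 higher, 1534 lower) with the 75th percentile shift, 1500 with normexp, 444 with the slide row as a block, and 792 to 1525 with 1 sample left out. Deviations of the B41HET and B41KO samples with the same replicate number correlated at 0.03, 0.01 and 0.05. For replicates 2 and 3, but not 1, the B41HET sample matched best with the B41KO sample of its own number. These values do not settle whether the replicate numbers pair the samples. The fit with a replicate block called 42 probes and no member. Signal over background limits Slc7a11, and to a lesser degree Slc1a5. For the other members the precision rests on 3 samples per genotype.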
